A study of Mus musculus with 12 samples.

Results

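The circadian clock genes of the liver were described through 10 members, Arntl, Clock, Npas2, Per1, Per2, Per3, Cry1, Nr1d1, Nr1d2 and Dbp, which were chosen by name and found as rows of both deposited count tables, among 20093 genes listed in both. Bulk RNA-seq was read from 12 libraries of whole liver of male mice, 3 in each of 4 groups. The study gives the chow libraries as separate mice, while the labels number the HFCF libraries without saying so, so that p-values with HFCF measure the spread between these samples, which may be technical. Each library is called a liver here. All mice were C57BL/6N and homozygous for a floxed allele of Elavl1, the gene of the RNA-binding protein HuR, and by the deposited labels they were 4 to 6 months old when injected. The labels give AAV8-Tbg-Cre, an adeno-associated virus with Cre behind a hepatocyte promoter, for the HuRHep-/- groups, and AAV8-Tbg-null, the virus without Cre, for the WT groups, whereas the methods of the study describe a cross with Alb-Cre mice at a younger age, and nothing in the counts settles between them. One WT and one HuRHep-/- group ate normal chow, and the other two ate for 16 weeks the HFCF diet, rich in fat (40 kcal%), cholesterol (2%) and fructose (20 kcal%). The Tbg promoter targets hepatocytes, whereas Alb-Cre can also act in bile duct cells.

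The clock is a loop of transcription. Arntl (BMAL1) with Clock, or with the related Npas2, binds E-boxes and switches on the Per and Cry genes, whose proteins then hold that pair back, while Nr1d1 and Nr1d2 (REV-ERB alpha and beta) repress Arntl from RORE elements, and Dbp carries the rhythm to output genes through D-boxes. In mouse liver these transcripts swing strongly over the day, with Arntl and Npas2 high when Dbp, Nr1d1 and the Per genes are low, and feeding time is a strong cue for this tissue. The hour at which each liver was taken is not given in the sources used here, so collection time and group cannot be told apart in any comparison that follows.

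Promoters of 9 of the 10 members were matched by symbol in RefSeq on build GRCm38.p6, as windows of 250 bases before to 50 after a transcript start, and 5 windows that hold a motif of the loop are shown because they carry the letters of the elements just named. Capitals mark the E-box CACGTG, the related CACGTT, the RORE cores TAGGTCA and TGGGTCA, and the D-boxes TTATGTAA, TTATGCAA and TTACGTAA, each searched on both strands, so that AACGTG is CACGTT read on the other strand. Cry1 is at chr10:85185005-85185304 on the minus strand, Per1 at chr11:69098699-69098998 on the plus strand, Per3 at chr4:151044616-151044915 on the minus strand, Nr1d1 at chr11:98775328-98775627 on the minus strand and Arntl, from the downstream of its 2 listed starts, at chr7:113207261-113207560 on the plus strand.
Cry1: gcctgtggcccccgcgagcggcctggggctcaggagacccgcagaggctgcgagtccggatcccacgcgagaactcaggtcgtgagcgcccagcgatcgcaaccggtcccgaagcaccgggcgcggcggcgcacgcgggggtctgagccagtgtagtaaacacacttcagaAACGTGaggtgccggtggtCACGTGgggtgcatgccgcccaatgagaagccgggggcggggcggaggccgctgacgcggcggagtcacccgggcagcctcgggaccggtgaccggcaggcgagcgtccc
Per1: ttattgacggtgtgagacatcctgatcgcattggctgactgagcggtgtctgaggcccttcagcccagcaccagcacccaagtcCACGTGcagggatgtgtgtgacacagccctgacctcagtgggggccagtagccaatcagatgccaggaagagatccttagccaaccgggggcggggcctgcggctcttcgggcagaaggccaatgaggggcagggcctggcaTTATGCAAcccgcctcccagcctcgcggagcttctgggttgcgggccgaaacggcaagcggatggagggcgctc
Per3: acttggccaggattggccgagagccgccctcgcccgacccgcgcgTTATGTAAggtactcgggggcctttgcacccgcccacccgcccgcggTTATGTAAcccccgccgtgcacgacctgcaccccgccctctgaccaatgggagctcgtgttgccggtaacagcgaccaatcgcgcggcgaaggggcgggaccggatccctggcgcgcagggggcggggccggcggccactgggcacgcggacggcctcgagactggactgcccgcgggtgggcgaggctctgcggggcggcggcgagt
Nr1d1: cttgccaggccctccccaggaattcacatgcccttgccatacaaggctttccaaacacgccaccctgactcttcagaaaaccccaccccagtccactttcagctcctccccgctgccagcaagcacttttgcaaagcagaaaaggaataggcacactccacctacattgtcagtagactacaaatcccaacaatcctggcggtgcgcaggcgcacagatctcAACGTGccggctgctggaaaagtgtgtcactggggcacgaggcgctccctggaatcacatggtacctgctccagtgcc
Arntl: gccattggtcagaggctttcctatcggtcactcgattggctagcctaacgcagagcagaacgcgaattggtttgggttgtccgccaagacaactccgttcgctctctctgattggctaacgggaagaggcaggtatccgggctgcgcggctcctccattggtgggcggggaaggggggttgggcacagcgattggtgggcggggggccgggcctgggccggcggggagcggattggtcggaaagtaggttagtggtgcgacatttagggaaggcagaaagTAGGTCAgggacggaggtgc

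The Cry1 window held both an E-box, whose first base lies 60 bases before the start, and a CACGTT, 79 bases before it. The Per1 window shown held an E-box and a D-box, and the Per3 window held 2 D-boxes. The other listed windows of Per1 and Arntl held none of the motifs. A CACGTT was found 28 bases before the start of Nr1d1, and the RORE core of Arntl began 31 bases into the transcript. Over all 32851 promoter windows of the table, 7.15% held the E-box, 4.68% the CACGTT, 6.45% a RORE core and 1.78% a D-box. Of the 13 windows of members, 2 held the E-box, 2 the CACGTT, 1 a RORE core and 2 a D-box. The windows of Clock, Npas2, Nr1d2 and Dbp held none of these letters, which says nothing of sites outside them, and Per2 had no entry.

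All 12 libraries were deep, with total counts from 30071731 to 35949203, and the 10 members together took from 9428 to 15656 counts of a library. Levels are given as CPM, in which a count is divided by the TMM-scaled size of its library. Elavl1, the targeted gene, was higher, not lower, in the livers labelled HuRHep-/-. Elavl1 was at 30.9, 29.3 and 31.0 CPM in chow WT against 42.8, 39.2 and 38.8 CPM in chow HuRHep-/-, and at 23.9, 24.1 and 27.0 CPM in HFCF WT against 32.4, 32.2 and 34.2 CPM in HFCF HuRHep-/-. The groups did not overlap in either diet, in the same direction, as was so for 11.2% of 14535 genes. These counts cover the whole gene and are no reading of the floxed part alone, so they cannot check the labels. The genotype below is that of the label, and each direction is drawn from livers labelled HuRHep-/- or WT.

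Divided by the length of each gene's joined exons in GENCODE M21, the members spanned a wide range of levels in the same livers. Dbp led, with 58.9 ± 11.4 CPM per kb (SD over 12 libraries), followed by Nr1d1 at 24.8 ± 7.68 and Nr1d2 at 12.1 ± 2.06. The negative limb came next, with Per1 at 5.90 ± 1.92, Per2 at 3.28 ± 0.878, Per3 at 2.01 ± 0.348 and Cry1 at 1.40 ± 0.521 CPM per kb. Clock, at 1.35 ± 0.284, lay above its partner Arntl, at 0.134 ± 0.0765, in 12 of 12 libraries, and Npas2 was lowest at 0.0372 ± 0.0211 CPM per kb. The steps from Dbp to Nr1d1, from Nr1d2 to Per1 and from Clock to Arntl were wider than the spread, with no overlap over the 12 libraries. Cry1 and Clock could not be ordered, since Cry1 was the higher in 7 of 12 libraries, and each of the remaining neighbours overlapped in range.

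**Figure D1:**
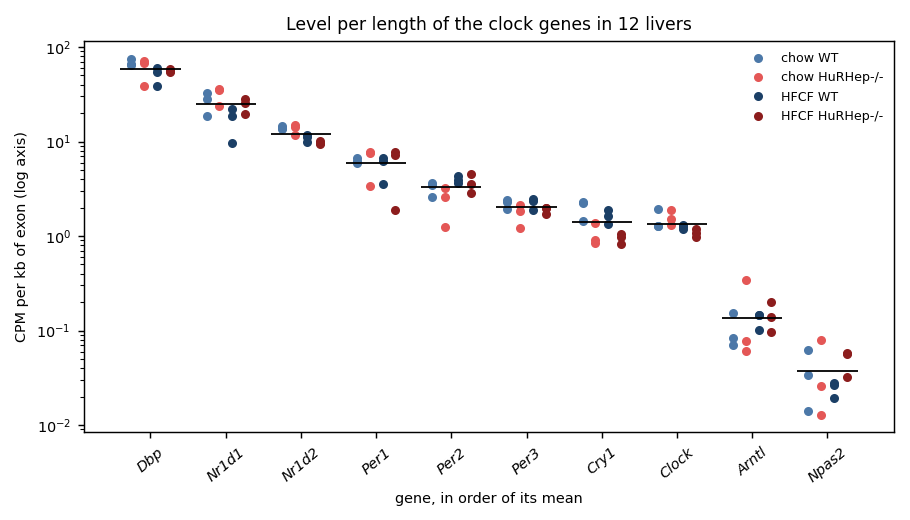
Level of each clock gene in CPM per kb of exon, on a log axis, with 1 point per liver coloured by group and a line at the mean of 12. Dbp lies highest in every liver, from 38.6 to 75.6, and Npas2 lies lowest by its mean, from 0.0129 to 0.0787.

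Arntl and Npas2, of the positive limb, were the sparsest members. Arntl, at chr7:113207465-113314126, was at 1.15, 0.535 and 0.621 CPM in the chow WT livers and at 2.55, 0.588 and 0.462 CPM in chow HuRHep-/-. In the HFCF livers Arntl was at 1.11, 1.10 and 0.762 CPM in WT and at 1.5, 1.04 and 0.727 CPM in HuRHep-/-. The first chow HuRHep-/- liver stood alone above all others, and the third of the same group was the lowest of the 12, so the widest spread of Arntl lay within 1 group. These levels rest on 15 to 88 counts, and the lowest count of 15 has an exact Poisson interval (95%, counting error only) of 8.40 to 24.7 against 70.6 to 108 for the highest. Npas2, which can stand in for Clock, had only 2 to 13 counts in any library, and it entered the test over 12 libraries but not those within a diet. Npas2 counts were 9, 2 and 5 in chow WT, 13, 2 and 4 in chow HuRHep-/-, 5, 3 and 4 in HFCF WT, and 11, 6 and 10 in HFCF HuRHep-/-. The Npas2 groups overlapped in chow, and in HFCF the 3 livers labelled HuRHep-/- lay above the 3 WT livers, at counts too low to enter the limma fit within that diet.

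Clock, the binding partner, was steadier. Clock, at chr5:76209868-76304792, was at 26.2, 17.7 and 17.6 CPM in chow WT and at 25.6, 20.7 and 17.9 CPM in chow HuRHep-/-. In HFCF livers Clock was at 18.1, 16.9 and 16.5 CPM in WT and at 13.6, 16.2 and 14.7 CPM in HuRHep-/-. All 3 HFCF HuRHep-/- livers were below every HFCF WT liver and every chow HuRHep-/- liver.

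The Per genes encode the repressor that accumulates with Cry. Per1 was at 34.8, 33.5 and 37.6 CPM in chow WT, at 19.0, 43.4 and 42.8 CPM in chow HuRHep-/-, at 20.1, 37.6 and 34.8 CPM in HFCF WT and at 10.6, 40.4 and 44.0 CPM in HFCF HuRHep-/-. In each of the last 3 groups the liver numbered 1 was the lowest for Per1, and the other two were at 34.8 CPM or more, while the 3 chow WT livers lay close together. Per2 was at 15.1, 21.2 and 20.2 CPM in chow WT, at 7.30, 15 and 18.7 CPM in chow HuRHep-/-, at 21.4, 25 and 22.8 CPM in HFCF WT and at 16.9, 20.8 and 26.3 CPM in HFCF HuRHep-/-. The liver numbered 1 was the lowest for Per2 in 4 of 4 groups, and the first chow HuRHep-/- liver was the lowest of the 12. Per3, the member of the family whose loss disturbs the rhythm least, was at 18.6, 23.0 and 21.8 CPM in chow WT, at 11.6, 17.5 and 20.3 CPM in chow HuRHep-/-, at 22.6, 23.7 and 18.1 CPM in HFCF WT and at 19.0, 16.6 and 19.1 CPM in HFCF HuRHep-/-. Per3 groups overlapped in each comparison, again with the first chow HuRHep-/- liver lowest.

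Cry1 was the member in which the genotype groups separated in both diets. Cry1, a repressor of the Arntl and Clock pair, lies at chr10:85131700-85185064, and no other annotated gene overlaps it. Cry1 was at 7.64, 4.82 and 7.52 CPM in chow WT and at 3.01, 2.85 and 4.58 CPM in chow HuRHep-/-. On HFCF, Cry1 was at 4.46, 5.49 and 6.23 CPM in WT and at 2.74, 3.24 and 3.5 CPM in HuRHep-/-. In CPM every liver labelled HuRHep-/- was below every WT liver of its diet, narrowly in chow, where the nearest values were 4.58 and 4.82 CPM. Before scaling, the Cry1 counts overlapped in chow, at 92 to 149 against 144 to 232, and did not in HFCF, at 110 to 130 against 169 to 196.

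The nuclear receptors and Dbp were the most abundant members. Nr1d1 was at 99.7, 87.2 and 57.5 CPM in chow WT, at 111, 107 and 73.3 CPM in chow HuRHep-/-, at 67.7, 57.4 and 29.9 CPM in HFCF WT and at 87.0, 77.8 and 60.0 CPM in HFCF HuRHep-/-. The liver numbered 1 was the highest and the liver numbered 3 the lowest for Nr1d1 in 4 of 4 groups, and the groups overlapped. Thra, a thyroid hormone receptor gene on the opposite strand that shares 263 exon bases with Nr1d1, had 304 to 654 counts and the same highest and lowest number in 4 of 4 groups. The methods describe alignment by strand for the chow libraries, and the setting for HFCF is not given in the sources used here. Nr1d2 was at 78.6, 75.6 and 73.3 CPM in chow WT, at 63.6, 76.6 and 80.5 CPM in chow HuRHep-/-, at 63.9, 61.0 and 53.3 CPM in HFCF WT and at 54.3, 51.8 and 51.6 CPM in HFCF HuRHep-/-. All 6 chow values of Nr1d2 but 1 lay above all 6 HFCF values, and the exception, the first chow HuRHep-/- liver, lay just under the highest HFCF WT liver. Dbp was at 195, 226 and 197 CPM in chow WT, at 116, 201 and 213 CPM in chow HuRHep-/-, at 165, 178 and 117 CPM in HFCF WT and at 177, 163 and 167 CPM in HFCF HuRHep-/-. The 2 lowest Dbp livers were the first chow HuRHep-/- and the third HFCF WT liver, and the chow WT livers lay above all 3 HFCF WT livers. Dbp shares 539 exon bases with Sphk2 on the opposite strand, a gene with 979 to 1949 counts.

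**Figure D2:**
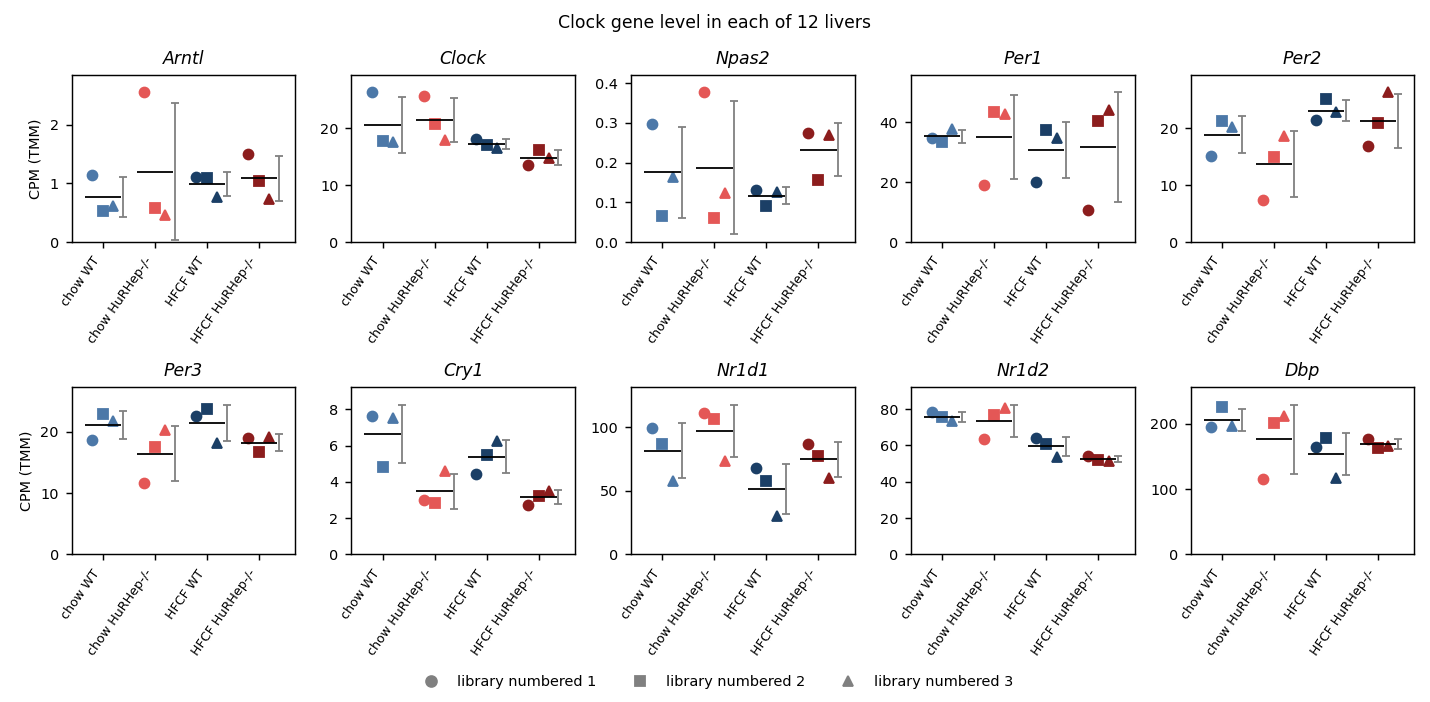
CPM of the 10 clock genes in each liver by group, with a marker for the number of the library, a line at the group mean and a grey bar of 1 SD either side (n = 3). The 6 livers labelled HuRHep-/- are below the WT livers of their diet for Cry1, and the circles, the livers numbered 1, are lowest for Per2 and highest for Nr1d1 in all 4 groups.

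The first question was whether the livers labelled HuRHep-/- differed from WT in the clock genes. Cry1 fell with the genotype over both diets, by 0.85 on the log2 scale (SE 0.16, 95% interval -1.19 to -0.50, limma with Benjamini-Hochberg adjustment, adjusted p = 0.00434), and the other 9 members were not called. A call needed a fold change of 1.5 or more, an adjusted p no greater than 0.05 and a sum of 10 or more counts in each group compared. By this rule 5.06% of 14535 genes were called over both diets, beside 1 of 10 members, and 11.2% of genes did not overlap in either diet in the same direction, beside Cry1 alone among the 10 members. An exact permutation test of Cry1 with labels exchanged within each diet gave p = 0.005, the smallest that 400 arrangements can give, two-sided and not adjusted for the 10 members looked at. Per3 had the next smallest p in that test, 0.035, with a log2 difference of -0.31 (SE 0.13, limma, adjusted p = 0.104).

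Within a diet the Cry1 estimates were alike but the calls less firm. In HFCF Cry1 fell by 0.78 (SE 0.16, limma, adjusted p = 0.0407), beside 3.62% of 14295 genes called. That call was lost when any 1 of the 6 HFCF libraries was left out, with log2 differences from -0.90 to -0.66 (limma, adjusted p from 0.0623 to 0.145). In chow the log2 difference of Cry1 was -0.93 (SE 0.24, limma, adjusted p = 0.0746), with 0 members called by limma or with voom weights, 1 of 9 tested members at an unadjusted p under 0.05, and 2.23% of 13526 genes called. Leaving out 1 chow library, Cry1 was called without the second WT liver (-1.14, limma, adjusted p = 0.0442) and without the third HuRHep-/- liver (-1.14, limma, adjusted p = 0.0442), and not in the other 4 fits. The genes called in all depended on single libraries as well, from 8 (without the second HuRHep-/- liver) to 320 (without the third) in chow, and from 28 (without the first HuRHep-/- liver) to 850 (without the third WT liver) in HFCF. With the spread estimated from all 12 libraries, the chow estimate passed (limma, adjusted p = 0.0310). Leaving out any 1 library kept Cry1 called over both diets in 12 of 12 fits, with log2 differences from -0.96 to -0.78 (limma, adjusted p from 0.00201 to 0.0139). Between the diets the Cry1 difference was not shown to differ (log2 0.17, 95% interval -0.52 to 0.86, limma, adjusted p = 0.847).

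For the other members the genotype estimates were smaller than their errors allow to be called. Nr1d1 was 0.43 higher on the log2 scale over both diets (SE 0.21, 95% interval -0.02 to 0.89, limma, adjusted p = 0.161), and Per2 was 0.34 lower (SE 0.20, 95% interval -0.78 to 0.10, limma, adjusted p = 0.247). For Arntl and Per1 the intervals were so wide, -0.66 to 1.04 and -0.88 to 0.61, that a change of 1.5-fold in either direction was not excluded. The same held for Npas2, at 0.41 (SE 0.46, 95% interval -0.60 to 1.42, limma, adjusted p = 0.560). Dbp, Clock and Nr1d2 had estimates of -0.054, -0.071 and -0.11, with intervals of -0.37 to 0.27, -0.32 to 0.17 and -0.25 to 0.03. In the chow comparison 5 signs turned when the first HuRHep-/- liver was left out: Arntl went from 0.29 to -0.47, Per1 from -0.10 to 0.29, Dbp from -0.27 to 0.010, Clock from 0.078 to -0.063 and Nr1d2 from -0.044 to 0.053. Without both livers labelled HuRHep-/- and numbered 1, Cry1 was the member called over both diets, at -0.76 (limma, adjusted p = 0.0313), and its call in HFCF was lost, at -0.67 (limma, adjusted p = 0.145). Among the 9 members tested within a diet, the genotypes did not overlap for Cry1 in chow, beside 29.5% of genes, and for Cry1 and Clock in HFCF, beside 36.8% of genes.

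**Figure D3:**
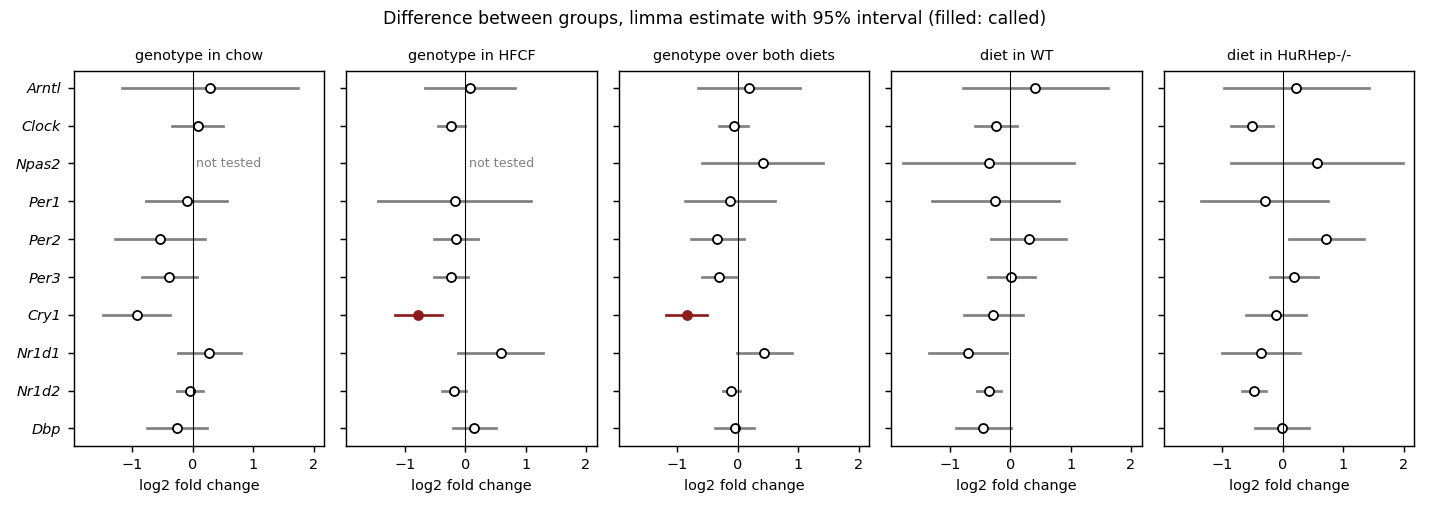
Log2 fold change of each clock gene in 5 comparisons, with its 95% interval from limma, where filled red points passed the adjusted p, fold and count criteria. Cry1 is filled in HFCF at -0.78 and over both diets at -0.85, and no member is filled for either effect of diet.

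The second question was the response to HFCF within a genotype. The chow and HFCF libraries come from separate tables, so diet, table and age at collection cannot be told apart. In WT livers 0 of 10 members were called by limma or with voom weights, 2 had an unadjusted p under 0.05, and 9.38% of genes were called. In livers labelled HuRHep-/- 0 of 10 were called in the same way, 3 had an unadjusted p under 0.05, and 19.1% of genes were called. Nr1d2 passed the adjusted p but not the fold criterion in both, at a log2 difference of -0.36 in WT (SE 0.09, limma, adjusted p = 0.0159) and -0.48 in HuRHep-/- (SE 0.09, limma, adjusted p = 0.00219). Clock did so in the livers labelled HuRHep-/-, at -0.52 (SE 0.16, limma, adjusted p = 0.0239). Per2 was at 0.72 there (SE 0.28, limma, adjusted p = 0.0635) and Nr1d1 at -0.70 in WT (SE 0.29, limma, adjusted p = 0.103). With upper-quartile factors Per2 was called, at 0.80 (limma, adjusted p = 0.0427). Without the third chow HuRHep-/- liver, Per2 and Clock were called for diet, at 1.00 (limma, adjusted p = 0.0212) and -0.64 (limma, adjusted p = 0.0178), and without the second HFCF HuRHep-/- liver Clock was, at -0.59 (limma, adjusted p = 0.0332). Nr1d2, Dbp and Per2 did not overlap between the diets in WT, where 37.6% of genes did not, and Nr1d2 and Clock did not in HuRHep-/-, where 54.6% did not. The interaction of genotype and diet was called for 0 of 14535 genes (0%) by limma or with voom weights, with 2088 genes and 0 members at an unadjusted p under 0.05.

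Within groups, 9 of the 10 members varied more than the median gene, and Nr1d2 varied less. Among the 14535 genes tested, the within-group SD of Npas2 (0.80 on the log2 scale) stood at the 95.4th percentile, that of Arntl (0.78) at the 95th, that of Per1 (0.71) at the 93.7th, that of Nr1d1 (0.43) at the 81.7th and that of Per2 (0.41) at the 80.4th, where the median gene had 0.18. Cry1 (0.31) and Dbp (0.30) stood at the 70.2th and 69.6th percentile, Per3 (0.25) at the 63.7th, Clock (0.22) at the 58.9th and Nr1d2 (0.12) at the 30.7th. The SD of Arntl and Npas2 includes the counting error of few reads. In the livers numbered 1, Arntl and Npas2 were the highest of their group in 4 of 4 groups. Per2 was the lowest there in 4 of 4, and Per1 in 3 of 4. Nr1d1 was the highest there in 4 of 4 groups too, although its usual phase is opposite to that of Arntl, and Dbp was the lowest in 2 groups and the highest in 1. Clock and Nr1d2 were the highest there in 3 groups and the lowest in 1, and Cry1 the highest in 1 and the lowest in 2. Per3 was the lowest there in 2 groups. Npas2 led narrowly in HFCF, at 5 counts against 4 in WT and 11 against 10 in HuRHep-/-. The share of all genes with such an order was not counted. The number as a term gave 5 of 10 members and 1259 of 14535 genes an unadjusted p under 0.05 (limma), and 0 genes an adjusted p of 0.05. The ratio of Dbp to Arntl ran from 45.3 in the first chow HuRHep-/- liver to 460 in the third of the same group. That ratio was 169, 423 and 318 in chow WT, 149, 162 and 154 in HFCF WT, and 118, 158 and 229 in HFCF HuRHep-/-, so the HFCF WT livers lay closest together. The numbers are names of livers in the labels and carry no stated date or hour.

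**Figure D4:**
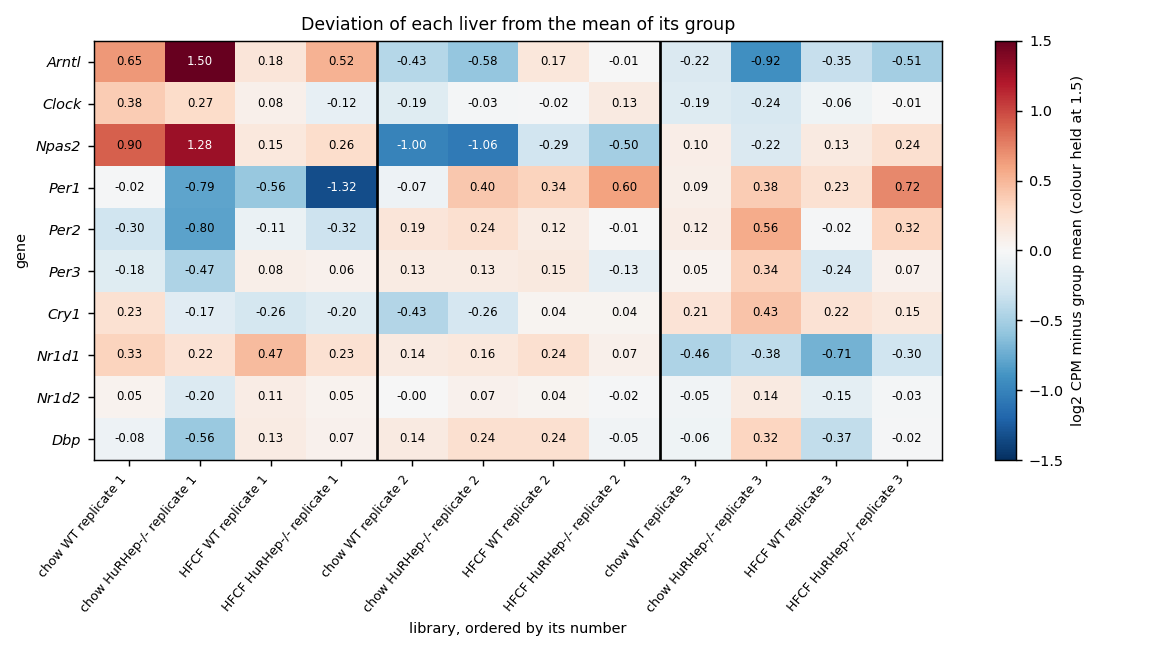
Log2 CPM of each clock gene minus the mean of its group, in each liver, with the livers ordered by their number and colour held at 1.5. In the block of livers numbered 1, Arntl is above its group mean in all 4 (0.18 to 1.5) and Per1 is below it in all 4 (-1.32 to -0.02).

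The wider clock was read through 18 other clock genes and 20 clock output genes, beside shares of all genes called of 2.23% for genotype in chow, 3.62% in HFCF and 5.06% over both diets, and 9.38% for diet in WT and 19.1% in HuRHep-/-. Of the 18, Timeless, whose protein works at replication forks in mammals, rose with the genotype in HFCF by 1.07 (SE 0.21, limma, adjusted p = 0.0343) and over both diets by 0.61 (SE 0.14, limma, adjusted p = 0.0113), and it rose with HFCF in the livers labelled HuRHep-/- by 1.15 (SE 0.20, limma, adjusted p = 0.00131). Timeless was at 8.20, 5.60 and 6.44 CPM in HFCF HuRHep-/- and at 2.26 to 4.03 CPM in the other 9 livers. Fbxl21, an F-box protein gene that acts on CRY, rose with HFCF in WT by 0.88 (SE 0.20, limma, adjusted p = 0.0102), and no other of the 18 was called in any comparison, with 0 of 17 tested in chow, 1 of 18 in HFCF and 1 of 18 over both diets called for genotype. Cry2, the paralog of Cry1, was at 0.30 in chow (SE 0.11, limma, adjusted p = 0.156), at -0.0090 in HFCF (SE 0.15, limma, adjusted p = 0.976) and at 0.15 over both diets (SE 0.10, limma, adjusted p = 0.307). Of the 20 clock output genes none was called for genotype by limma, with 3 in chow, 6 in HFCF and 3 over both diets at an unadjusted p under 0.05. With diet in WT, Cdkn1a (3.38) and Ppara (0.59) rose and Gys2 fell (-0.87), and in the livers labelled HuRHep-/- Cdkn1a rose (4.43) and Elovl3 fell (-1.79).

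Genes that respond to food, stress hormone and temperature were read beside the clock, with the shares of all genes called for genotype as above, 2.23% in chow and 5.06% over both diets. Of 12 feeding genes, Scd1, a fatty acid desaturase, fell with the genotype in chow (-1.59) and over both diets (-0.92), 5 rose with diet in WT, led by Scd1 (1.78), Srebf1 (1.73) and Pnpla3 (1.66), beside 9.38% of all genes called, and 7 rose with diet in the livers labelled HuRHep-/-, led by Scd1 (3.12), Pnpla3 (2.50) and Fasn (1.70), beside 19.1% of all genes. Of 12 fasting genes none was called for genotype, while Pdk4 and Fgf21 rose with diet in WT (2.13 and 1.84) and in HuRHep-/- (1.76 and 1.54), where Ppargc1a fell (-0.91). Of 8 glucocorticoid genes Klf9 was the one called, for diet in WT (-0.76) and in HuRHep-/- (-0.75). Of 10 immediate early genes Junb rose with the genotype over both diets (0.73), and Atf3 (2.77) and Ier3 (1.02) rose with diet in HuRHep-/-. Of 7 body temperature genes Hspa1a (2.46) and Hsph1 (0.60) rose with diet in HuRHep-/-. All these calls are from limma at the stated criteria, and the part of feeding, hormone or temperature in the levels of the clock genes was not tested.

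Markers of other liver cells were read in the same groups. In bulk tissue, fewer cells of a type and less RNA per cell cannot be told apart. The summed level of 6 hepatocyte markers was 102059 to 124440 CPM in chow WT, 80381 to 90452 CPM in chow HuRHep-/-, 71463 to 82595 CPM in HFCF WT and 63189 to 68485 CPM in HFCF HuRHep-/-, with no marker at 0. The 8 Kupffer cell and macrophage markers summed to 144 to 185, 203 to 300, 219 to 355 and 305 to 505 CPM in the same order, with 2 of the 8, Marco (1.24) and Cd5l (0.66), called higher for genotype over both diets. The 7 stellate cell markers summed to 61.9 to 81.0, 49.2 to 79.2, 67.2 to 176 and 191 to 251 CPM, and the 5 cholangiocyte markers to 35.1 to 78.8, 47.0 to 77.2, 38.6 to 87.3 and 132 to 241 CPM. Spp1 was the largest part of the cholangiocyte sum, with a mean of 158 CPM in HFCF HuRHep-/-. Alb was the largest part of the hepatocyte sum, with a mean of 74063 CPM in chow WT. Of the cholangiocyte markers Epcam (0.95, limma, adjusted p = 0.0239) and Spp1 (0.90, limma, adjusted p = 0.0414) were called higher for genotype over both diets, beside 5.06% of all genes called, and none of the markers was called for genotype in chow. The 6 endothelial markers summed to 86.7 to 116 CPM over all 12 livers. In the order of groups above, the 6 lymphocyte markers summed to 2.86 to 4.88, 3.78 to 5.29, 3.49 to 5.98 and 5.46 to 7.0 CPM. The 4 neutrophil markers summed to 1.05 to 1.10, 0.862 to 1.64, 0.765 to 1.02 and 1.63 to 1.89 CPM. With diet in HuRHep-/-, 7 of 7 stellate and 5 of 5 cholangiocyte markers were called higher. So were 4 of 8 Kupffer cell and macrophage, 3 of 6 lymphocyte and 1 of 6 endothelial markers. In that comparison 3 of 6 hepatocyte markers were called lower, beside 19.1% of all genes called. With diet in WT, 3 of 8 Kupffer cell and macrophage and 1 of 7 stellate markers were called higher. There 2 of 6 hepatocyte markers were called lower, beside 9.38% of all genes called. For genotype in HFCF, Cyp2e1 was the hepatocyte marker called lower, and Acta2, Krt19 and Krt7 were called higher, beside 3.62% of all genes called. The part of cell make-up in the Cry1 difference was not tested.

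Among 12007 genes with a mean of at least 1 CPM, those whose log2 level over the 12 livers was most like that of Arntl were Tab1, 2900052L18Rik, Exo5, Ccdc14 and Mical2, with Pearson's r from 0.87 to 0.89 and, for deviations from the group means, from 0.89 to 0.95. Those most like Dbp were Gtf2e2, Stard3, Mtrf1l, Mtfp1 and Zfp326, with r from 0.82 to 0.88 and from 0.75 to 0.87. These are descriptions over 12 points that share the libraries and their scaling.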

How the data were processed

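RNA-seq of 12 mouse livers was analysed from deposited tables. The authors aligned Illumina reads to GRCm38.p6 in CLC Genomics Workbench (version not given in the sources used here) and deposited raw counts per gene, without normalization, in a chow and an HFCF table. Values carry a comma as digit separator, so the unit was recorded as other, and limma on log2 CPM replaced the count test. Counts were read after removing commas, scaled by TMM factors written anew (trims 0.3 and 0.05) and logged with a pseudocount of 0.5. Genes were kept where 3 or more libraries reached what 10 counts are in a library of median size and the libraries summed to 15 or more, which removed Npas2 within each diet. Genotype within a diet was fitted on 6 libraries and the other comparisons on 12, in R 4.3.3 with limma 3.58.1 and Benjamini-Hochberg adjustment over all genes tested. Where the labels name no animal (HFCF), p-values measure the spread between samples, which may be technical. Exons and positions are from GENCODE M21. Fits were tested on simulated data.

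Alternatives tried were upper-quartile and RLE factors, no filter, at least 10 counts in every library, a pseudocount of 2, voom weights, the adjusted p alone, a replicate block, a fit on all 12 libraries and leaving out each library. The members, gene lists and tests were chosen with earlier results of these data known. Named were the members, Elavl1, overlapping genes, called genes of the other clock list, up to 3 called genes per comparison of each other list, and the 5 genes most like Arntl and Dbp. Cry2, Noct and Ciart, and the marker genes, were named after their values were seen.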

Additional observations from a re-analysis of the deposited data

How the results depend on the processing

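Of 1050 member values refitted under another setting, 973 kept their direction and their side of the threshold and 59 changed sign. Members called with upper-quartile factors numbered 0 for genotype in HFCF (Cry1 -0.73, limma, adjusted p = 0.0513) and 1 for diet in HuRHep-/- (Per2 0.80, limma, adjusted p = 0.0427), and Dbp turned to 0.068 for that diet effect, or to 0.024 with at least 10 counts in every library. The fit on all 12 libraries called 1 member, Cry1, for genotype in chow. The adjusted p alone called 1 member for diet in WT (Nr1d2) and 2 for diet in HuRHep-/- (Nr1d2 and Clock), and 558, 958, 2729, 3432 and 5563 genes for the 5 comparisons in the order genotype in chow, in HFCF, over both diets, diet in WT and diet in HuRHep-/-.

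Over all genes, livers with the same number deviated together only weakly (r from -0.14 to 0.19). Livers with different numbers gave r from -0.21 to 0.22. The number was therefore not taken as a pairing, although r over all genes cannot show a factor shared by few genes. With the replicate block, 1 member was called for diet in WT (Nr1d1 -0.70, limma, adjusted p = 0.00287) and 1 for diet in HuRHep-/- (Per2 0.72, limma, adjusted p = 0.0145), and no other count of members changed. The number as a term over 12 libraries gave 0 genes at an adjusted p of 0.05 and 1259 at an unadjusted p under 0.05 in limma, with Nr1d1 at rank 4 (limma, adjusted p = 0.0794) and 5 of 10 members under 0.05 unadjusted.

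Without both livers labelled HuRHep-/- and numbered 1, a setting added after the data were seen, 0 members were called for genotype in HFCF and 1 for diet in HuRHep-/- (Nr1d2 -0.60), and signs turned for genotype in chow (Arntl -0.47, Clock -0.063, Per1 0.29, Nr1d2 0.053, Dbp 0.010), in HFCF (Arntl -0.18, Per1 0.49, Per2 0.013), over both diets (Arntl -0.33, Per1 0.39, Dbp 0.062), for diet in HuRHep-/- (Per3 -0.078) and for the interaction (Arntl 0.31, Per1 0.22, Per3 -0.095). The cause was not tested.

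Leaving out 1 library, members called ran from 0 to 1 for genotype in chow, 0 to 0 in HFCF, 1 to 1 over both diets and 0 to 2 for diet in HuRHep-/-, and genes called from 8 to 320 in chow and 28 to 850 in HFCF. Log2 ranges that crossed 0 were, for genotype in chow, Arntl -0.47 to 0.75, Clock -0.063 to 0.27, Per1 -0.30 to 0.29, Nr1d2 -0.11 to 0.053 and Dbp -0.43 to 0.010. For genotype in HFCF they were Arntl -0.18 to 0.33, Per1 -0.53 to 0.49, Per2 -0.31 to 0.013 and Dbp -0.029 to 0.27. Over both diets they were Arntl -0.20 to 0.42, Clock -0.15 to 0.024, Per1 -0.32 to 0.19 and Dbp -0.14 to 0.075. For diet in WT they were Npas2 -0.86 to 0.089, Per1 -0.42 to 0.035 and Per3 -0.071 to 0.14. For diet in HuRHep-/- they were Arntl -0.24 to 0.97, Per1 -0.70 to 0.36, Per3 -0.054 to 0.36, Cry1 -0.24 to 0.10 and Dbp -0.29 to 0.15. For the interaction they were Arntl -0.65 to 0.56, Per1 -0.45 to 0.61, Per3 -0.070 to 0.34 and Nr1d1 -0.018 to 0.57. Depth limits Arntl and Npas2, and 3 livers a group cannot give an exact permutation p under 0.1.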

Other observations

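Noct and Ciart, clock-controlled genes outside the 10 members that were picked after their values were seen, are given by liver as a description with no test. Noct, a deadenylase-like protein with a strong evening rhythm in mouse liver, was lowest in the liver numbered 1 in 4 of 4 groups. Noct was at 19.7, 38.8 and 38.9 CPM in chow WT, at 13.9, 53.6 and 82.4 CPM in chow HuRHep-/-, at 16.0, 37.3 and 42.6 CPM in HFCF WT and at 15.9, 64.0 and 60.7 CPM in HFCF HuRHep-/-. The 4 livers numbered 1 lay below the other 8 for this gene. Ciart, a repressor of the Arntl and Clock pair, was at 23.8, 22.3 and 28.3 CPM in chow WT, at 5.74, 16.5 and 35.9 CPM in chow HuRHep-/-, at 9.05, 22.6 and 17.9 CPM in HFCF WT and at 5.41, 13.5 and 19.1 CPM in HFCF HuRHep-/-. The liver numbered 1 was the lowest for Ciart in 3 of 4 groups.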
